A study of Rattus norvegicus with 6 samples.

Results

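The microRNAs (miRNAs) described here are the 3 that rat myosin heavy chain genes carry inside their introns, miR-208a-3p of Myh6, miR-208b-3p of Myh7 and miR-499-5p of Myh7b. They were found by the names rno-miR-208a-3p, rno-miR-208b-3p and rno-miR-499-5p among the 763 mature miRNAs of one table, and all 3 were in it. The libraries were made from exosomes, vesicles shed by cells, that had been purified from rat serum. The IPC group (3 libraries) came from rats given ischemic preconditioning, a series of 3 cycles of 5 min of closure and 5 min of reopening of the left anterior descending coronary artery. The control group (3 libraries) came from rats bled in the same way without that procedure, and no sham operation is mentioned for them. The rats of both groups were adult male Sprague-Dawley animals aged 9 to 10 weeks and weighing 250 to 280 g, anesthetized before the experiment, with blood drawn from the left ventricle. Nothing in the labels ties each library to a separate rat, so the p-values below measure the spread between these libraries, which may be technical.

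Myosin heavy chain is the motor protein of the contractile filament. In the adult rodent heart the ventricle is built mainly with the alpha chain, encoded by Myh6, while Myh7 encodes the beta chain of the fetal heart and of slow skeletal muscle, and Myh7b is a related gene of heart and slow muscle. Each of these genes yields a miRNA from an intron, and in mice miR-208a is known to be needed for the switch toward beta myosin in the stressed heart. miR-208a and miR-499 are widely studied in blood as markers of heart muscle injury.

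The mature sequences, given by RefSeq with the assembly GRCr8, are shown because all 3 share bases 2 to 7 near the 5′ end. In addition, miR-208a-3p and miR-208b-3p are near copies of each other, which bears on how reads are divided between them. Capitals mark the seed, bases 2 to 8, the part of a miRNA that pairs with its targets.
miR-208a-3p: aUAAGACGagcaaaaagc
miR-208b-3p: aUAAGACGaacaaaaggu
miR-499-5p: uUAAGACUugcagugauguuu

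In GRCr8, which is not the build named for the authors' files, miR-208a-3p lies at chr15:32395568-32395585 and miR-208b-3p at chr15:32421648-32421665, both on the minus strand. miR-499-5p lies at chr3:164570616-164570636 on the plus strand. The RefSeq gene table places each inside its host gene, on that gene's strand, and lists 0 genes between Myh6 and Myh7. miR-208a-3p and miR-208b-3p have the same seed and match at 15 of the 18 positions compared, counted from 1 at the 5′ end, with the differences G10A, A16G and C18U (the base of miR-208a-3p first). The seed of miR-499-5p differs in its last base, and miR-208a-3p and miR-499-5p match at 10 of 18 positions. Of the 693 mature miRNA names in the RefSeq table, only these 3 have the letters UAAGAC at bases 2 to 7, and 686 of the 763 deposited names were matched in that table.

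Whole counts could be recovered from the deposited normalised values. Library totals were 319285 to 762927 counts in the IPC group and 111048 to 152343 in the control group, so each IPC library was deeper than each control library. Levels are therefore given below as recovered counts, as CPM (a share of the library total in parts per 1000000), and as the authors' normalised values, which are scaled to one common library size of 265919. In bulk exosome RNA, fewer vesicles from a cell type and less RNA per vesicle cannot be told apart.

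miR-208a-3p, the miRNA of the alpha myosin gene, had 257, 266 and 242 recovered counts in IPC replicates 1, 2 and 3. In the controls, replicates 1, 2 and 3 gave 4, 76 and 1. Control replicate 2 thus held most of the control reads, and control replicates 1 and 3 rested on a handful. As normalised values the level was 95.6, 111 and 179 in IPC replicates 1, 2 and 3, against 13.3, 93.7 and 2.99 in control replicates 1, 2 and 3. The IPC libraries were close to one another, and the lowest of them stood just above control replicate 2. The mean was 129 ± 44.5 normalised counts in the IPC group and 36.7 ± 49.7 in the control group (SD, n = 3 each), a ratio of means of 3.51. In the control group the SD exceeded the mean.

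miR-499-5p, the miRNA of Myh7b, had 286, 648 and 326 recovered counts in IPC replicates 1, 2 and 3. In the controls, replicates 1, 2 and 3 gave 6, 126 and 2. The normalised level was 106, 272 and 242 in IPC replicates 1, 2 and 3, against 19.5, 156 and 5.31 in control replicates 1, 2 and 3. Here the groups overlapped, since IPC replicate 1 lay below control replicate 2. The mean was 207 ± 88.1 normalised counts in the IPC group and 60.1 ± 83.0 in the control group (SD, n = 3 each), a ratio of means of 3.44.

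miR-208b-3p, the miRNA of the beta myosin gene, was scarce in every library. It had 3, 18 and 7 recovered counts in IPC replicates 1, 2 and 3, against 0, 7 and 0 in control replicates 1, 2 and 3. A count of 0 allows up to 3 counts, which at the common library size is 9.17 in control replicate 1 and 6.85 in control replicate 3. Those limits lie above or close to the IPC levels, which were 1.12, 7.55 and 5.19 counts at the common library size in replicates 1, 2 and 3, so no difference was detectable at this depth. Pooled over all libraries of a group, 28 counts in the IPC group and 7 in the control group corresponded to 0.980 times the control level at the common library size (95% interval 0.418 to 2.66, exact). Pooling weighs larger libraries more, so this value is not comparable with the ratios of means given for miR-208a-3p and miR-499-5p. On that measure, from the normalised values, miR-208b-3p was at 1.50. Intervals on counts here reflect the counting error of reads alone. Reads without molecular identifiers are not independent molecules, so these intervals can be too narrow.

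**Figure D1:**
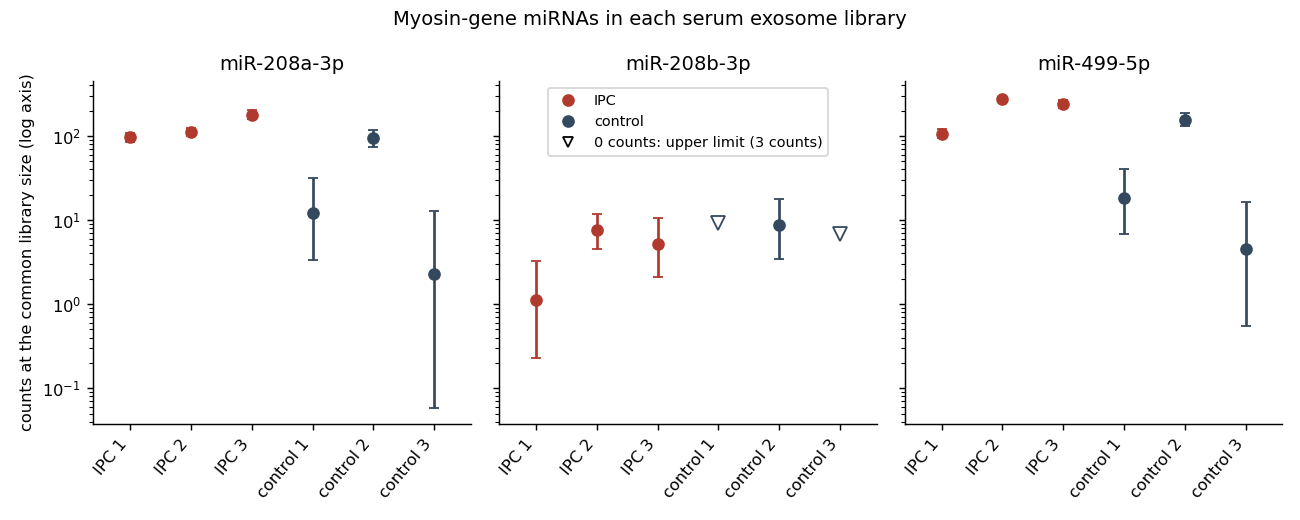
Recovered counts of miR-208a-3p, miR-208b-3p and miR-499-5p in each library, scaled to the common library size (log axis), with exact 95% Poisson intervals of the counts; open triangles mark the upper limit where 0 counts were found. For miR-208a-3p and miR-499-5p, control replicate 2 stands near the IPC libraries, while control replicates 1 and 3 lie well below them. For miR-208b-3p, control replicate 2 is at 8.66, against 1.12, 7.55 and 5.19 in IPC replicates 1, 2 and 3.

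Whether control replicate 2 lay below the IPC libraries depended on the scaling. In CPM, miR-208a-3p was at 337, 402 and 758 in IPC replicates 1, 2 and 3, and at 36.0, 499 and 7.71 in control replicates 1, 2 and 3. On that scale control replicate 2 lay above the first 2 IPC libraries, and the groups overlapped. The exact 95% Poisson intervals were 297 to 381 in IPC replicate 1, 355 to 454 in IPC replicate 2 and 393 to 624 in control replicate 2, so control replicate 2 exceeded IPC replicate 1 beyond counting error, but not IPC replicate 2. miR-499-5p was at 375, 980 and 1021 CPM in IPC replicates 1, 2 and 3, and at 54.0, 827 and 15.4 in control replicates 1, 2 and 3. Control replicate 2 carried the highest scaling factor of the 6 libraries, 1.41, against 0.783 to 1.12 in the others. A miRNA with every IPC library above every control library was found for 12.4% of the 226 tested miRNAs on the normalised scale, where miR-208a-3p was among them and miR-499-5p was not. Scaled to the library total alone, the share was 8.41%, and neither was among them.

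The members were a small part of the exosomal miRNA pool. Their CPM summed to 716, 1409 and 1801 in IPC replicates 1, 2 and 3, against 90.1, 1372 and 23.1 in control replicates 1, 2 and 3. Ranked by counts, miR-499-5p stood at 100 of the 411 miRNAs with a count in IPC replicate 1, at 68 of 419 in IPC replicate 2 and at 74 of 372 in IPC replicate 3. Its rank was 167 of 291 in control replicate 1, 81 of 351 in control replicate 2 and 219 of 284 in control replicate 3.

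In each of the 6 libraries the order of counts was miR-499-5p, then miR-208a-3p, then miR-208b-3p. Counts of different miRNAs were compared without correction for how well each is captured in a library. miR-208a-3p made up 47.3% of the counts of miR-208a-3p and miR-499-5p together in IPC replicate 1 (exact Clopper-Pearson 95% interval 43.1% to 51.6%), so these neighbours in the order did not differ there beyond counting error. The share was 29.1% in IPC replicate 2 (26.2% to 32.2%) and 42.6% in IPC replicate 3 (38.5% to 46.8%). In control replicate 2 it was 37.6% (30.9% to 44.7%), inside the range of the IPC libraries. In control replicates 1 and 3 it rested on 10 and 3 counts, and the intervals ran from 12.2% to 73.8% and from 0.840% to 90.6%. The interval of IPC replicate 2 did not reach those of IPC replicates 1 and 3, so it was richer in miR-499-5p than they were, beyond counting error. The log2 ratio of miR-208a-3p to miR-499-5p averaged -0.62 ± 0.59 in the IPC group and -0.66 ± 0.12 in the control group (SD; exact permutation test, two-sided, n = 3 each, p = 0.9), a difference of 0.04 that ranged from -0.19 to 0.37 when single libraries were left out.

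miR-208b-3p was the minor form of the miR-208 pair. It made up 1.15% of the counts of miR-208a-3p and miR-208b-3p in IPC replicate 1 (exact 95% interval 0.239% to 3.33%), 6.34% in IPC replicate 2 (3.80% to 9.83%) and 2.81% in IPC replicate 3 (1.14% to 5.71%). In control replicate 2 the share was 8.43% (3.46% to 16.6%), and control replicates 1 and 3 held 4 and 1 counts of the pair, too few to give a share. The alpha-myosin form was thus in the majority wherever the share could be measured. With 3 bases between them, the division of reads between miR-208a-3p and miR-208b-3p also depends on how the authors aligned mismatched reads, which is not given in the sources used here.

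**Figure D2:**
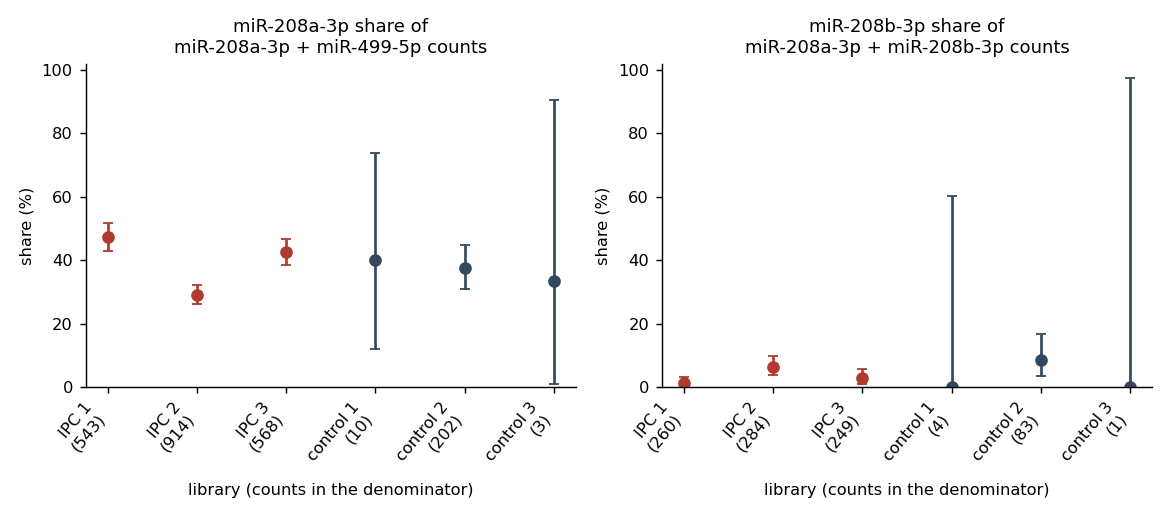
Left, counts of miR-208a-3p as a percentage of miR-208a-3p plus miR-499-5p; right, counts of miR-208b-3p as a percentage of miR-208a-3p plus miR-208b-3p, per library, with exact 95% binomial intervals and the denominator in brackets. miR-208a-3p made up 29.1% to 47.3% of its pair in the IPC libraries and 37.6% in control replicate 2, while control replicates 1 and 3 hold too few counts to place.

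The opposite arms of the 3 hairpins were almost absent. The mir-208a hairpin is shown because it alone had counts from both arms, and capitals mark its arms, miR-208a-5p first and miR-208a-3p after it (RefSeq, GRCr8, chr15:32395552-32395634, minus strand).
mir-208a hairpin: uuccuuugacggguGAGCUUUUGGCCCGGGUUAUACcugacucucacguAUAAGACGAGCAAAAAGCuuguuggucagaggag

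For miR-208a-5p, IPC replicates 1, 2 and 3 gave 7, 5 and 0 counts and each control library gave 0. Over the IPC group it made up 1.54% of the counts of both arms (exact 95% interval 0.800% to 2.68%). The 81 control counts of miR-208a-3p were too few to show whether that share differed, and with the control group at its limit of 3 counts the IPC level was at least 0.980 times as high, which allows no difference. miR-208b-5p and miR-499-3p had 0 counts in all 6 libraries.

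IPC and control libraries were compared to ask whether preconditioning goes with a change in circulating miRNAs, and for the myosin-gene miRNAs the call depended on whether control replicate 2 was included. limma on log2(value + 1) gave miR-208a-3p a log2 fold change of 2.83 (SE 1.03, 95% interval 0.57 to 5.10), or 7.13-fold, and miR-499-5p one of 2.82 (SE 1.03, 95% interval 0.56 to 5.08), or 7.05-fold. Both had an adjusted p = 0.35 over the 226 miRNAs tested (limma, Benjamini-Hochberg), so neither passed the threshold of 0.05. The 2 groups' means differed by 3.51-fold and 3.44-fold, less than the fitted folds, which average logarithms. miR-208b-3p fell below the abundance filter and was not tested. When every miRNA with a count was fitted, its log2 fold change was 0.82 (SE 0.96; limma, adjusted p = 0.738 over 480 miRNAs).

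No miRNA passed the adjusted threshold, so the share called was 0% in either direction. At an unadjusted p below 0.05, 20 miRNAs were higher (8.85%) and 4 lower (1.77%) in limma, and limma-voom on the recovered counts called 0 at the adjusted threshold, with 19 higher and 4 lower unadjusted. miR-208a-3p and miR-499-5p were among the 20, at ranks 10 and 11 by p and 5 and 6 by log2 fold change. Log2 fold changes were above 0 for 62.8% of the tested miRNAs, with a median of 0.38, and relative to that median miR-208a-3p was at 2.45 and miR-499-5p at 2.44. The authors' deposited table gives miR-208a-3p a log2 fold change of 1.79 (p = 0.0735), miR-499-5p 1.77 (p = 0.0825) and miR-208b-3p 0.40 (p = 0.696), with unadjusted p-values.

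Leaving out control replicate 2 raised the log2 fold change to 4.05 for miR-208a-3p and 4.08 for miR-499-5p, and both then passed the threshold (limma, adjusted p = 0.00226 and 0.00126), in a fit that called 12.8% of the tested miRNAs higher. Leaving out control replicate 3 lowered both to 1.76 (limma, adjusted p = 0.92). Leaving out control replicate 1 or a single IPC library gave 2.57 to 3.02 for miR-208a-3p and 2.57 to 3.24 for miR-499-5p, and none of these passed. Control replicate 2 was the highest of the controls for 45.6% of tested miRNAs, including both members tested. For miR-208a-3p it stood 7.03 times above the next control, and for miR-499-5p 7.98 times. This was not particular to the members, since it stood at 22.6 times the highest other control for miR-1-3p and 4.95 times for miR-206-3p. For miR-133a-3p, miR-133b-3p and miR-133a-5p it was at 1.38, 1.15 and 0.317 times. With 0.5 count added to each value, the highest control exceeded the lowest by 27.6-fold for miR-208a-3p and 27.4-fold for miR-499-5p, against a median of 4.07-fold over all tested miRNAs. In the IPC group the same ratio was 1.87-fold for miR-208a-3p and 2.55-fold for miR-499-5p, against a median of 2.35-fold.

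**Figure D3:**
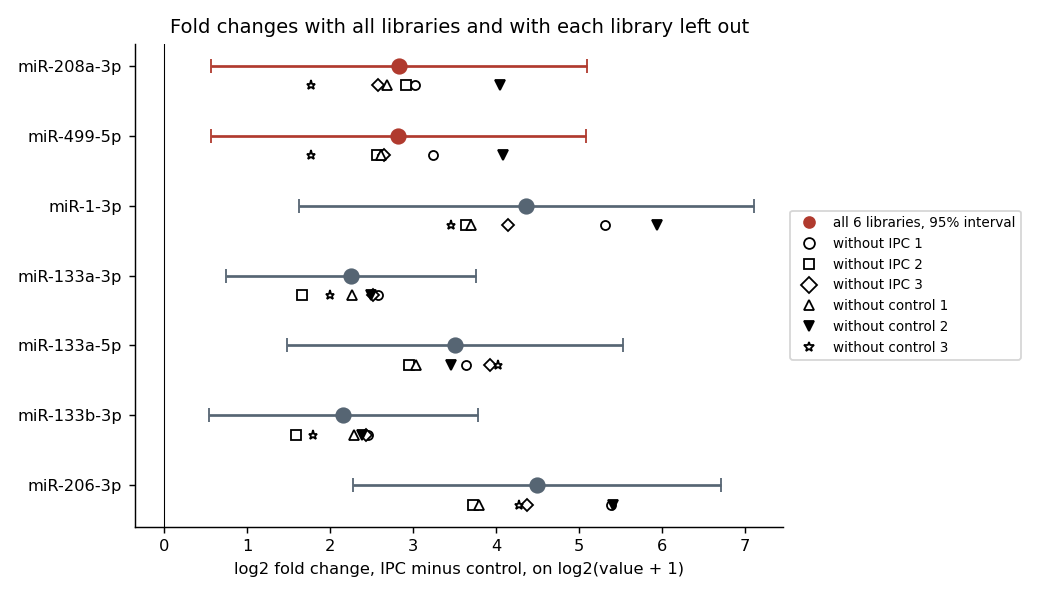
Log2 fold change, IPC minus control, of miR-208a-3p, miR-499-5p and 5 other muscle miRNAs, with all 6 libraries (filled circles, 95% interval from limma) and with each library left out in turn (small symbols below). For miR-208a-3p and miR-499-5p the value moved from 1.76 without control replicate 3 to 4.05 and 4.08 without control replicate 2.

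The other muscle miRNAs were set beside the myosin-gene ones. miR-1-3p and miR-133a-3p are made in heart and skeletal muscle, and miR-206-3p and miR-133b-3p mainly in skeletal muscle. Of the 5 muscle miRNAs listed, 5 had positive log2 fold changes, and 0 passed the adjusted threshold in limma. Their median was 3.50, against 0.38 over all tested miRNAs. That median is the value of miR-133a-5p, which had 0, 1 and 2 counts in control replicates 1, 2 and 3. It met the abundance filter through the IPC libraries alone. All 5 muscle miRNAs had an unadjusted p below 0.05 and passed without control replicate 2. They were chosen with earlier results of these data known, so their median is a description only. miR-1-3p was at 1235, 12485 and 6188 normalised counts in IPC replicates 1, 2 and 3, against 86.9, 1966 and 62.4 in control replicates 1, 2 and 3. miR-206-3p was at 194, 1973 and 794 in IPC replicates 1, 2 and 3, against 10.4, 105 and 21.2 in control replicates 1, 2 and 3. Both were highest in IPC replicate 2, as was miR-499-5p, whereas miR-208a-3p was highest in IPC replicate 3.

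Within the IPC group the normalised level of miR-208a-3p and miR-499-5p varied less between libraries than that of the muscle miRNAs listed. The highest IPC library exceeded the lowest by 1.88-fold for miR-208a-3p and 2.56-fold for miR-499-5p. The same ratio was 3.36-fold for miR-133b-3p, 3.58-fold for miR-133a-3p, 4.02-fold for miR-133a-5p, 10.1-fold for miR-1-3p and 10.2-fold for miR-206-3p. Among all 226 tested miRNAs, ordered from the widest IPC spread, miR-208a-3p stood at 155 and miR-499-5p at 98, while miR-206-3p and miR-1-3p stood at 6 and 7. miR-208b-3p, on 3 to 18 counts a library, spanned 9.68-fold. For each 1000 counts of miR-1-3p there were 77.5, 8.93 and 29.0 of miR-208a-3p in IPC replicates 1, 2 and 3. The exact 95% intervals were 68.0 to 88.0, 7.89 to 10.1 and 25.4 to 32.9, so these libraries differed by far more than counting error. In control replicate 2 there were 47.8 per 1000 (37.5 to 60.2), and in control replicates 1 and 3, with 28 and 27 counts of miR-1-3p, 143 (36.4 to 408) and 37.0 (0.905 to 225). miR-499-5p was at 86.3, 21.8 and 39.0 per 1000 counts of miR-1-3p in IPC replicates 1, 2 and 3, against 214, 79.3 and 74.1 in control replicates 1, 2 and 3. Set against miR-133a-3p, miR-208a-3p was at 48.1, 15.7 and 82.0 counts per 1000 in IPC replicates 1, 2 and 3, against 18.3, 101.6 and 4.93 in control replicates 1, 2 and 3. miR-499-5p was at 53.6, 38.2 and 110 per 1000 counts of miR-133a-3p in IPC replicates 1, 2 and 3, against 27.4, 168 and 9.85 in control replicates 1, 2 and 3. Against miR-133a-3p the IPC libraries thus lay between control replicate 2 and control replicate 3, with no order of the groups, and these ratios were not tested.

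**Figure D4:**
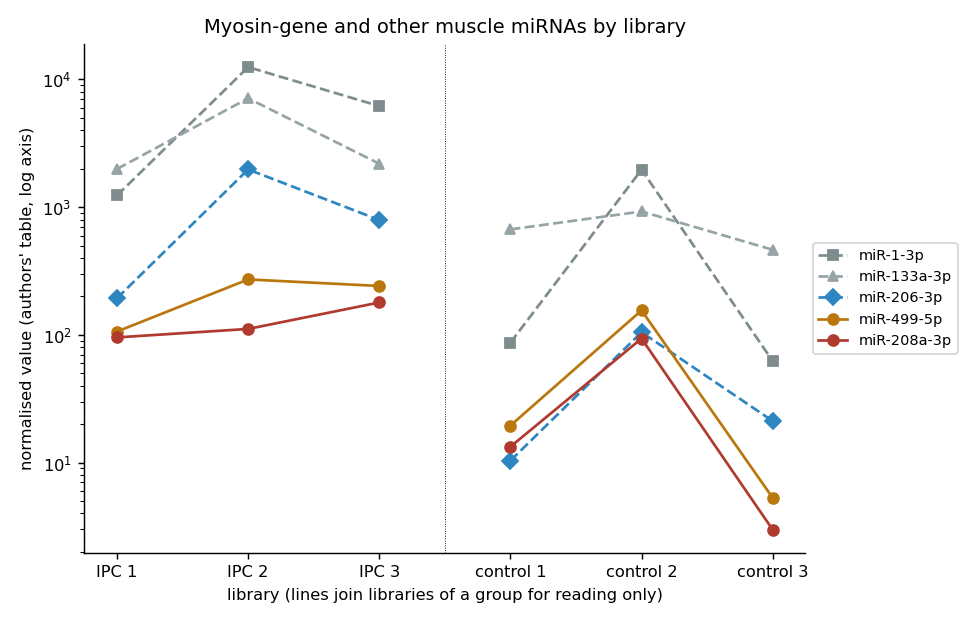
The authors' normalised values (log axis) of miR-208a-3p and miR-499-5p (solid lines) and of miR-1-3p, miR-133a-3p and miR-206-3p (dashed lines) in each library. miR-1-3p and miR-206-3p span about 10-fold within the IPC group, from IPC replicate 1 to IPC replicate 2, while miR-208a-3p spans 1.88-fold. In the control group every miRNA shown peaks in control replicate 2, though miR-133a-3p stands only 1.38 times above the next control.

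The ratios of miR-208a-3p and miR-499-5p to miR-1-3p and miR-206-3p were lower on the log2 average in the IPC group, but the groups overlapped for each ratio. The log2 ratio of miR-208a-3p to miR-1-3p averaged -5.20 ± 1.56 in the IPC group and -3.75 ± 0.94 in the control group, a difference of -1.45 (exact permutation test, two-sided, n = 3 each, p = 0.3). For miR-499-5p to miR-1-3p the difference was -1.50 (exact permutation test, two-sided, p = 0.2). Against miR-206-3p the differences were -1.61 for miR-208a-3p and -1.66 for miR-499-5p (exact permutation tests, two-sided, p = 0.3 each). Adjusted over the 5 ratios compared, p was 0.375 for these 4 and 0.9 for miR-208a-3p to miR-499-5p, and 3 against 3 libraries cannot give a raw p below 0.1. The control ratios rest on 1 to 6 counts of miR-208a-3p and miR-499-5p in control replicates 1 and 3. Those to miR-206-3p rest also on just 3 and 9 counts of miR-206-3p in these 2 libraries. Leaving out single libraries moved the difference for miR-208a-3p between -2.21 and -0.65 against miR-1-3p and between -2.54 and -0.76 against miR-206-3p.

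The tested miRNAs whose levels followed miR-208a-3p most closely over the 6 libraries, by Pearson's r on log2(value + 1), were miR-450a-5p (r = 0.996), miR-30e-5p (0.983), miR-199a-3p (0.981), miR-450b-5p (0.973) and miR-203a-3p (0.967). For miR-499-5p they were miR-199a-3p (r = 0.987), miR-450a-5p (0.986), miR-30e-5p, miR-101b-3p (0.976 each) and miR-101a-3p (0.973). The r between miR-208a-3p and miR-499-5p was 0.985. miR-1-3p stood at rank 15 for miR-208a-3p (r = 0.924) and rank 7 for miR-499-5p (r = 0.965), and miR-133a-3p at ranks 63 and 48. The closest miRNAs were thus not those of the muscle list. For miR-208b-3p, on 0 to 18 counts a library, the closest were miR-466c-5p (r = 0.940), let-7i-5p (0.911), miR-30a-5p (0.906), miR-18a-3p (0.892) and miR-10b-5p (0.890). These correlations describe 6 libraries that share 2 groups and a scaling, with control replicates 1 and 3 low and the other 4 high, and carry no test.

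Markers of other sources moved in part with the same libraries. The 2 skeletal muscle miRNAs, miR-206-3p and miR-133b-3p, had counts in every library. They summed to 622 to 3411 normalised counts in the IPC group and 109 to 305 in the control group. Most of the control sum was miR-133b-3p, at 174, 200 and 87.3 in control replicates 1, 2 and 3. The 2 differed in their fitted fold, 22.5 for miR-206-3p and 4.45 for miR-133b-3p. The 3 miRNAs of heart and skeletal muscle summed to 3247 to 19661 in the IPC group and 531 to 2893 in the control group, with miR-133a-5p at 0 counts in control replicate 1. The leukocyte list (miR-142-5p, miR-142-3p, miR-150-5p, miR-155-5p and miR-146a-5p, 5 of 5 measured) summed to 4574 to 7118 in the IPC group and 2033 to 3796 in the control group. The platelet list (miR-223-3p, miR-126a-3p and miR-126a-5p, 3 of 3) summed to 722 to 2386 in the IPC group and 401 to 955 in the control group. For it the groups overlapped, since IPC replicate 1, at 722, lay below control replicates 1 and 2, at 734 and 955. The red-cell list (miR-451-5p, miR-144-3p, miR-144-5p and miR-486, 4 of 4) summed to 12423 to 16025 in the IPC group and 9509 to 23021 in the control group. The hepatocyte list (miR-122-5p and miR-192-5p, 2 of 2) summed to 1615 to 4146 in the IPC group and 3494 to 4239 in the control group. The part of these sources, and of the higher depth of the IPC libraries, in the levels of miR-208a-3p and miR-499-5p was not tested.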

How the data were processed

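Per the labels' protocols, small RNA libraries were prepared from 1 µg of Trizol-extracted total RNA with a NEBNext kit and read as single-end 50 bp reads. Of tools, FastQC, BWA and edgeR are named, with the build rn6, per the submitters' processing notes, and no versions or roles are given. The deposited table gives a normalised signal for each library, then a log2 fold change and an unadjusted p-value by the authors, per the file headers. The signal followed, from its values, the form of counts moved by negative binomial quantile adjustment (dispersion 0.503) to one library size within each group. Inverting it gave whole counts for 4578 of 4578 values (within 0.01), and recomputed values differed by at most 1.6e-08. Because the values are not counts, the count test that the design named first was replaced by its planned substitute, limma 3.58.1 in R 4.3.3, with trended and robust estimation, on log2(value + 1), fitted to miRNAs with 10 or more counts at the median library size in 3 or more libraries, and 15 or more over all 6. Fold changes on that scale understate the change of low miRNAs. Chi-square values per degree of freedom of 150 to 445 showed that libraries of a group differed beyond sampling noise. Ratios, with 0.5 count added, were tested by exact permutation over 20 assignments, in Python 3.11.15 with scipy 1.17.1. The members, lists and tests were chosen with earlier results of these data known. Named miRNAs were the members, their hairpins' other arms, 5 muscle miRNAs, the marker lists and, for each member, the 5 tested miRNAs with the highest r. The pipeline was tested on simulated data. Alternative pseudocounts, filters, scalings, models and left-out libraries were tried.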

Additional observations from a re-analysis of the deposited data

How the results depend on the processing

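The log2 fold changes of miR-208a-3p and miR-499-5p stayed positive in each of the 17 alternatives. Over the 11 that keep all libraries they ran from 2.41 to 2.96 and from 2.52 to 2.91, with adjusted p from 0.12 to 0.515 (limma). With single libraries left out they ran from 1.76 to 4.05 and from 1.76 to 4.08. Median-of-ratios scaling and upper-quartile scaling shifted the median of all tested miRNAs by -0.19 and -0.21, and relative to that median miR-208a-3p was at 2.54 and 2.55 and miR-499-5p at 2.47 and 2.48. The number of miRNAs called was 0 in the main fit and 3 with no filter (miR-1-3p, miR-206-3p and miR-18a-5p, the last named after its value was seen). With single libraries left out it ran from 0 to 38, the 38 without control replicate 2. The replicate block, with the number in the titles as a term, called 2 (miR-206-3p and miR-1-3p), and neither myosin-gene miRNA (adjusted p = 0.179 and 0.14, limma). Deviations of same-numbered libraries correlated at 0.13, -0.18 and -0.51, so the numbers were not taken to pair libraries. The difference in the log2 ratio of miR-208a-3p to miR-499-5p was -0.024 with 1 count added, and ran from -0.19 to 0.37 with single libraries left out. The other ratios kept their direction in each of 9 alternatives. The alternative without quantile adjustment was chosen after seeing the data. Control replicates 1 and 3 held 10 and 3 counts of the 3 miRNAs, which limits the precision of their values, while control replicate 2, at a similar total, held 209.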

Other observations

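miR-206-3p kept a more even proportion to miR-1-3p within the IPC group than miR-208a-3p did. It had 157, 158 and 128 counts per 1000 counts of miR-1-3p in IPC replicates 1, 2 and 3 (exact 95% intervals 143 to 172, 153 to 163 and 120 to 137), and 53.5 in control replicate 2 (42.5 to 66.6). In control replicates 1 and 3 the value was 107 (20.8 to 347) and 333 (138 to 730). In the IPC libraries miR-208a-3p was at 493, 56.5 and 226 counts per 1000 counts of miR-206-3p, and in control replicate 2 at 894 (647 to 1233).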
